A study of Mus musculus with 16 samples.

Results

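The genes described here are 10 genes of blood vessels and of vessel growth: Vegfa, Kdr, Flt1, Pecam1, Cdh5, Tek, Angpt1, Angpt2, Pdgfb and Pdgfrb. They were chosen by name as ligands, receptors and endothelial genes of the main vessel growth pathways, out of 24411 genes in the expression tables, and all 10 passed the filter on low counts that left 16665 genes for testing. The RNA-Seq study asked how sympathetic ganglia change on the way to MYCN-driven neuroblastoma, and whether losing 1 allele of Runx1t1, a transcriptional co-repressor, alters that path. It comprised 16 mouse libraries in 5 groups, 12 of them from celiac ganglia of 2-week-old mice and 4 from tumors.

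The first group held 4 ganglia lacking the transgene, Runx1t1 being wild-type (called transgene-free wild-type ganglia, and TF WT in the plots). The second held 3 ganglia without the transgene from mice labelled Runx1t1 heterozygote (transgene-free het ganglia, TF het). The third held 3 ganglia of mice homozygous for Th-MYCN with wild-type Runx1t1 (MYCN wild-type ganglia, MYCN WT), and the fourth held 2 ganglia of Th-MYCN homozygotes labelled Runx1t1 heterozygote (MYCN het ganglia, MYCN het). The 4 tumors came from Th-MYCN homozygotes with wild-type Runx1t1, and their age was not given in the sources used here. Th-MYCN places human MYCN under the tyrosine hydroxylase promoter, a promoter active in catecholaminergic cells such as sympathetic neuroblasts. The Runx1t1 het allele is an insertional inactivation. No label said whether the replicates came from separate animals, so the p-values measure the spread between these libraries.

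Blood vessels are lined by endothelial cells and wrapped by mural cells, the pericytes and smooth muscle cells. VEGF-A made by the surrounding tissue acts on the endothelial receptors Kdr (VEGFR2), which carries the growth signal, and Flt1 (VEGFR1), which binds the ligand tightly and largely acts as a decoy. Angpt1 activates the endothelial receptor Tek (Tie2) and steadies vessels, Angpt2 is released by endothelial cells and mostly opposes it, and endothelial Pdgfb recruits mural cells through their receptor Pdgfrb.

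Library sizes ran from 10692299 to 38618757 counted fragments. The libraries stood apart in several ways that touch the vessel genes. Transgene-free wild-type replicate 2, the smallest library, held 719.8 TPM (transcript abundance scaled per gene length to a common total) summed over 9 lymphocyte and thymocyte genes, against at most 14.4 in any other library, and it also had the highest Pecam1, Cdh5 and Kdr of all. Tumor replicate 3 held 7678 TPM summed over 6 liver genes. Runx1t1 itself was measured at 8.47 to 13.1 CPM (counts scaled by library size) in transgene-free wild-type ganglia and at 13.1 to 18.2 in the transgene-free het ganglia, and at 23.4, 111 and 243 in MYCN wild-type ganglia against 25.3 and 49.9 in the MYCN het ganglia, so its RNA did not check the het labels. The tissue labels were checked against defining markers, and Th was present in all 16 libraries, while 10 of 10 glial genes were lower in tumors than in transgene-free wild-type ganglia, with a summed level of 42.8 to 52.7 TPM in tumors and 656 to 2412 TPM in those ganglia. TPM is used below for levels, and log2 fold changes come from TMM-normalised counts. The 2 scales differed by 0.42 (log2) for tumors relative to transgene-free wild-type ganglia, with the count scale giving the tumors the higher values.

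Of the endothelial receptors, Kdr, Flt1 and Tek varied together across the libraries (Pearson r of 0.812 to 0.940 between pairs), and their promoters are shown here so that the sequence next to their start sites can be read beside the values. These are the 250 bases upstream of each start site in the RefSeq table for GRCm38.p6, written 5′ to 3′ on the gene's strand, with capitals marking each GGAA or its reverse complement TTCC, the core letters bound by ETS-family factors, which include regulators of endothelial genes. The 3 genes shown were those of 5 receptor and junction genes with an entry in the table, and Cdh5 and Pecam1 had none.
Kdr, chr5:75978456-75978705, minus strand: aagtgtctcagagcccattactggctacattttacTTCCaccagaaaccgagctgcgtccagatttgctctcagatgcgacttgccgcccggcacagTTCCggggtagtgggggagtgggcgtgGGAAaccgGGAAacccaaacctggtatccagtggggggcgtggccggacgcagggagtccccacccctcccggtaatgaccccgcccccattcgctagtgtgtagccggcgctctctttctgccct
Flt1, chr5:147726012-147726261, minus strand: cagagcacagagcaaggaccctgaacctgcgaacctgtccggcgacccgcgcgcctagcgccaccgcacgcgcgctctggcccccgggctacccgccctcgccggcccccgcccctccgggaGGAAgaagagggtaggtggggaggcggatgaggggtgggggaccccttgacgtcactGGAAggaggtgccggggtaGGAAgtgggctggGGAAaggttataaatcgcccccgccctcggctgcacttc
Tek, chr4:94739039-94739288, plus strand: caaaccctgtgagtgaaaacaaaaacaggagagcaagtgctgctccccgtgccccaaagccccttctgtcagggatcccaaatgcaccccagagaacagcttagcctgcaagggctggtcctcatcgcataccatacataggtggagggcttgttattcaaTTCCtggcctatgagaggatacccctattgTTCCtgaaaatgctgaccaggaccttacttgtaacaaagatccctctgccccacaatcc

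The Kdr and Flt1 windows each held 4 matches to GGAA on both strands together, and the Tek window held 2. Among 32851 promoter windows of the same length, 93.4% held at least 1 match, the median was 3 matches, and 33.4% held 4 or more. The longer ETS form CCGGAAGT was absent from all 3 windows and present in 2.88% of all windows. These counts describe the letters only.

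Vegfa, the ligand, had group means between 51.3 and 74.1 TPM (chr17:46016993-46032369, minus strand; all gene positions are GRCm38). Its TPM was 61.0, 57.3, 89.9 and 88.1 in transgene-free wild-type replicates 1 to 4, and 69.0, 60.2 and 77.3 in transgene-free het replicates 1, 3 and 4. In MYCN wild-type replicates 1, 3 and 4 it was 26.6, 119 and 52.7, in MYCN het replicates 1 and 2 it was 56.4 and 46.2, and in tumor replicates 1 to 4 it was 68.0, 41.2, 62.3 and 42.3. The lowest and the highest libraries were both MYCN wild-type ganglia, and the tumors overlapped every ganglion group in TPM. After TMM normalisation the tumors ran from 73.7 to 119 CPM, above the MYCN het ganglia at 59.4 and 69.8 CPM. The log2 fold change of tumors against MYCN het ganglia was 0.52 (95% interval -0.35 to 1.39, edgeR adjusted p = 0.315). Both MYCN het ganglia lay below all 7 transgene-free ganglia in TPM, and against the transgene-free het ganglia the log2 fold change was -0.48 (95% interval -1.39 to 0.43, edgeR adjusted p = 1), in a comparison where 11.9% of all tested genes had every library lower. Vegfa RNA did not pass the test in tumors against transgene-free wild-type ganglia, with a log2 fold change of -0.08 ± 0.32 (SE, 95% interval -0.77 to 0.61, edgeR adjusted p = 0.847), or against MYCN wild-type ganglia, at 0.08 (95% interval -0.68 to 0.83). Modest changes in either direction therefore lay inside both intervals.

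The receptor Kdr (chr5:75932827-75978458, minus strand) was spread widely within the ganglia. It was measured at 6.58, 72.1, 29.7 and 18.7 TPM in transgene-free wild-type ganglia, 22.5, 15.4 and 13.2 in transgene-free het ganglia, 3.85, 29.6 and 9.85 in MYCN wild-type ganglia, 12.5 and 7.12 in MYCN het ganglia, and 4.19, 12.6, 6.11 and 9.66 in tumors. Replicate 1 was the lowest in both wild-type ganglion groups, and the tumors lay within the range of the ganglia. Against transgene-free wild-type ganglia, tumors had a log2 fold change of -1.58 ± 0.68 (SE), and this did not pass the threshold (edgeR adjusted p = 0.0588). It was -0.69 (adjusted p = 0.338) without transgene-free wild-type replicate 2, and it passed without transgene-free wild-type replicate 1 (-1.91, adjusted p = 0.0195) or tumor replicate 2 (-1.89).

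The decoy receptor Flt1 (chr5:147561604-147726011, minus strand) had the same order of group means in TPM, at lower levels. Its TPM was 2.56, 13.4, 13.1 and 9.52 in transgene-free wild-type ganglia, 9.78, 6.50 and 7.62 in transgene-free het ganglia, 1.98, 11.9 and 5.50 in MYCN wild-type ganglia, 8.23 and 3.72 in MYCN het ganglia, and 2.62, 7.0, 1.49 and 2.87 in tumors. Tumor replicate 2 was the highest tumor, and the groups overlapped. The log2 fold change of tumors against transgene-free wild-type ganglia was -1.04 ± 0.59 (SE, edgeR adjusted p = 0.145), and without tumor replicate 2 it passed the threshold (-1.65, adjusted p = 0.0336).

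Pecam1 (CD31, chr11:106654217-106750628, minus strand), the junction protein used to stain vessels, spanned 8.42 to 198 TPM over the libraries. It was measured at 15.6, 198, 79.6 and 53.1 TPM in transgene-free wild-type ganglia, 37.0, 33.5 and 33.2 in transgene-free het ganglia, 11.4, 43.2 and 24.7 in MYCN wild-type ganglia, 45.0 and 17.5 in MYCN het ganglia, and 8.73, 25.6, 8.64 and 8.42 in tumors. Of the tumors, 3 lay below every ganglion, and replicate 2 overlapped them. Tumors were lower than transgene-free wild-type ganglia by a log2 fold change of -2.36 ± 0.67 (SE, 5.14-fold, edgeR adjusted p = 0.00826). Without transgene-free wild-type replicate 2 the value was -1.45 and the adjusted p was 0.0409, and without tumor replicate 2 it was -2.96. Both libraries also had the highest myeloid sum of their group, 747 and 319 TPM. The part of blood cells in the Pecam1 values was not tested.

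Cdh5 (VE-cadherin, chr8:104101625-104144511, plus strand), which holds endothelial cells together at their junctions, followed Pecam1. Its TPM was 13.4, 128, 95.4 and 57.4 in transgene-free wild-type ganglia, 55.9, 41.2 and 38.2 in transgene-free het ganglia, 8.80, 82.0 and 31.8 in MYCN wild-type ganglia, 47.4 and 23.4 in MYCN het ganglia, and 11.6, 22.8, 12.1 and 11.6 in tumors. Tumor replicates 1, 3 and 4 were nearly equal, and the replicate 1 ganglia of both wild-type groups lay at the level of the tumors. Tumors were lower than transgene-free wild-type ganglia by -1.94 ± 0.64 (log2, SE, 3.84-fold, edgeR adjusted p = 0.0191), a call that was lost without transgene-free wild-type replicate 2 (-1.46, adjusted p = 0.0652).

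In these bulk libraries, fewer endothelial cells and less RNA per endothelial cell cannot be told apart.

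**Figure D1:**
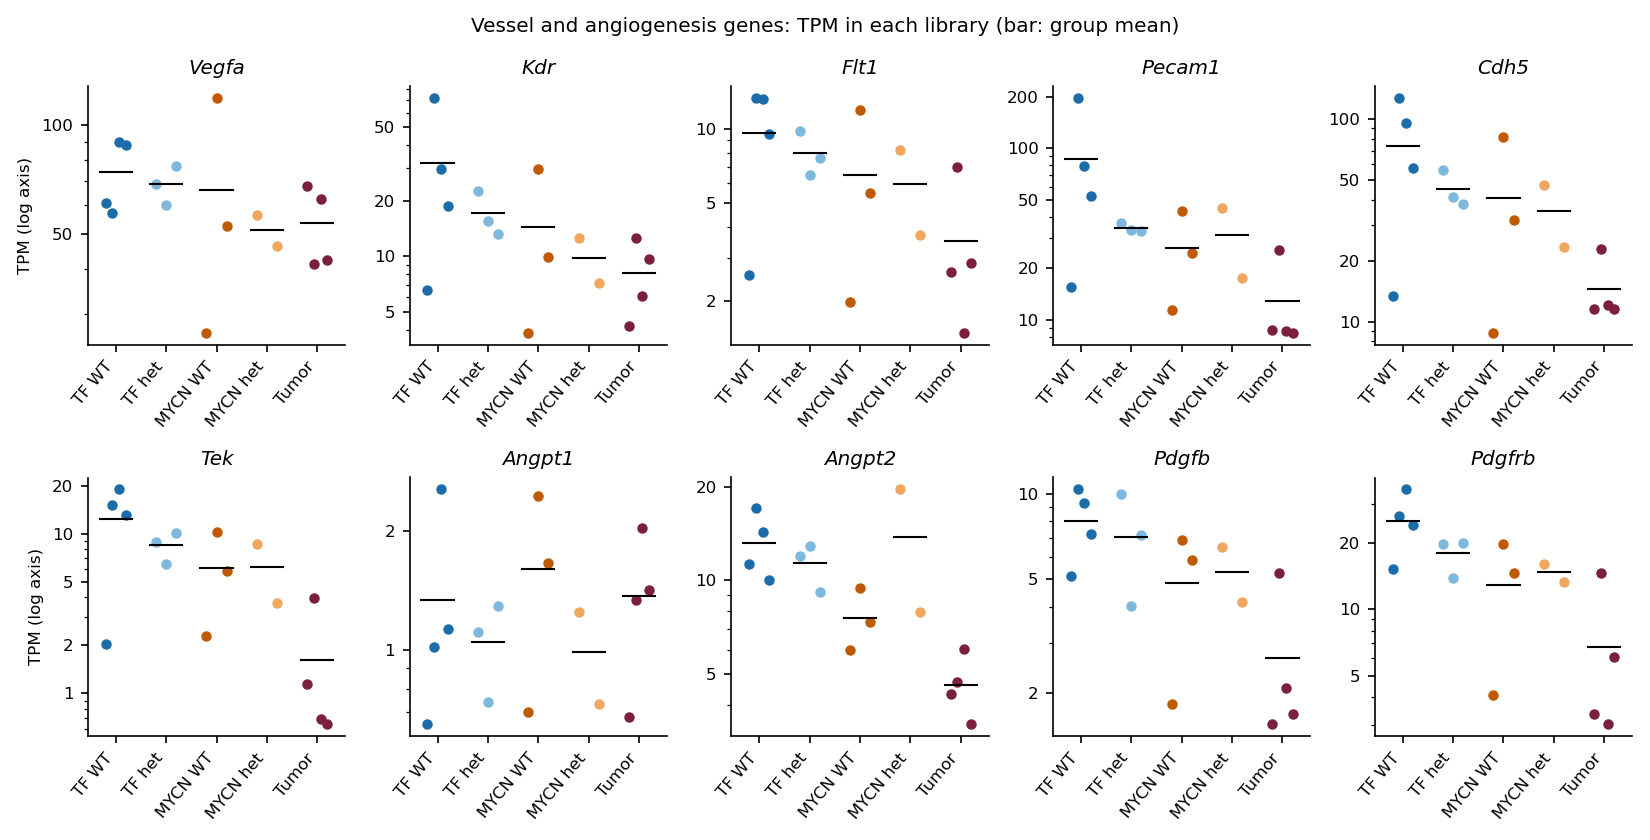
TPM of the 10 vessel genes in each library on log axes, 1 panel per gene, with 1 point per library and a bar at the group mean. In TPM, Kdr, Flt1, Pecam1, Cdh5, Tek, Angpt2, Pdgfb and Pdgfrb have their lowest group mean in the 4 tumors. Vegfa and Angpt1 have theirs in the MYCN het ganglia. After TMM normalisation the lowest Kdr mean was that of the MYCN het ganglia (20.8 CPM, beside 24.4 in tumors).

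The angiopoietin receptor Tek (chr4:94739289-94874976, plus strand) had the largest fold difference of the set. It was measured at 2.05, 15.2, 19.0 and 13.1 TPM in transgene-free wild-type ganglia, 8.90, 6.44 and 10.1 in transgene-free het ganglia, 2.29, 10.3 and 5.81 in MYCN wild-type ganglia, 8.60 and 3.70 in MYCN het ganglia, and 1.14, 3.97, 0.69 and 0.64 in tumors. Tumor replicates 1, 3 and 4 lay below every ganglion, and replicate 2 lay above 3 of the 12. Tumors were lower than transgene-free wild-type ganglia by -2.51 ± 0.72 (log2, SE, 5.68-fold, edgeR adjusted p = 0.00874), and by -3.51 (adjusted p = 0.00111) without tumor replicate 2.

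The 2 ligands of Tek differed from each other. Angpt2 (chr8:18690263-18741562, minus strand) was measured at 11.3, 17.1, 14.3 and 10.01 TPM in transgene-free wild-type ganglia, 12.0, 12.9 and 9.17 in transgene-free het ganglia, 5.99, 9.43 and 7.34 in MYCN wild-type ganglia, 19.6 and 7.92 in MYCN het ganglia, and 4.31, 4.73, 6.01 and 3.46 in tumors. All 4 tumors lay below all 4 transgene-free wild-type ganglia, and Angpt2 was the only member whose groups did not overlap in that comparison after TMM normalisation, where 23% of the tested genes had every tumor lower. Its log2 fold change was -1.11 ± 0.28 (SE, 2.15-fold, edgeR adjusted p = 0.00456), the smallest error and the smallest p-value of the 10. Angpt2 also had less spread among the transgene-free wild-type ganglia (13.2 ± 3.16 TPM, SD, n = 4) than Pecam1 (86.5 ± 78.6 TPM, SD, n = 4).

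Angpt1 (chr15:42424723-42676977, minus strand) was the scarcest member, with 14 to 128 counts per library. It was measured at 0.65, 1.02, 2.55 and 1.13 TPM in transgene-free wild-type ganglia, 1.11, 0.74 and 1.29 in transgene-free het ganglia, 0.70, 2.45 and 1.66 in MYCN wild-type ganglia, 1.25 and 0.73 in MYCN het ganglia, and 0.68, 1.34, 2.03 and 1.42 in tumors. All groups overlapped. The log2 fold change of tumors against transgene-free wild-type ganglia was 0.44 ± 0.49 (SE, 95% interval -0.60 to 1.49, edgeR adjusted p = 0.455), so an increase of 2-fold lay inside the interval.

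The ratio of Angpt2 to Angpt1 TPM was 6.34, 3.53, 2.96 and 2.44 in tumors. It was 17.4, 16.7, 5.61 and 8.86 in transgene-free wild-type ganglia, 10.8, 17.4 and 7.11 in transgene-free het ganglia, 8.56, 3.85 and 4.42 in MYCN wild-type ganglia, and 15.7 and 10.8 in MYCN het ganglia. The tumor ratios overlapped those of both wild-type ganglion groups and were below those of both het groups, with no test.

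Pdgfb (chr15:79995874-80014977, minus strand), the endothelial signal to mural cells, was measured at 5.15, 10.4, 9.28 and 7.22 TPM in transgene-free wild-type ganglia, 9.96, 4.04 and 7.16 in transgene-free het ganglia, 1.82, 6.88 and 5.84 in MYCN wild-type ganglia, 6.48 and 4.18 in MYCN het ganglia, and 1.55, 5.27, 2.07 and 1.68 in tumors. Tumor replicate 2 again stood above the other 3, and at the level of the lowest transgene-free wild-type ganglion. Tumors were lower than transgene-free wild-type ganglia by -1.18 ± 0.48 (log2, SE, edgeR adjusted p = 0.0489). This call held in 9 of 20 alternative settings, and it was lost on leaving out transgene-free wild-type replicate 2, 3 or 4 or tumor replicate 1, 3 or 4, with adjusted p up to 0.118. Without tumor replicate 2 the value was -1.78.

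Its receptor Pdgfrb, the pericyte receptor, was measured at 15.2, 26.4, 35.0 and 24.2 TPM in transgene-free wild-type ganglia, 19.8, 13.9 and 20.1 in transgene-free het ganglia, 4.10, 19.8 and 14.6 in MYCN wild-type ganglia, 16.1 and 13.4 in MYCN het ganglia, and 3.34, 14.7, 3.01 and 6.09 in tumors. All 4 tumors were below the 4 transgene-free wild-type ganglia on the TPM scale but not after TMM normalisation. Tumors were lower by -1.46 ± 0.51 (log2, SE, edgeR adjusted p = 0.0239), and the call was lost without transgene-free wild-type replicate 3 or tumor replicate 1, 3 or 4, with adjusted p of at most 0.0638. Without tumor replicate 2 the value was -2.19. In the same comparison 8 of 8 fibroblast genes and 4 of 12 mural cell markers were lower, beside 30.7% of all tested genes. The part of either cell type in the Pdgfrb value was not tested.

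Counted together, 6 of the 10 genes (Pecam1, Cdh5, Tek, Angpt2, Pdgfb and Pdgfrb) were lower in tumors than in transgene-free wild-type ganglia and 0 were higher, in a comparison where 30.7% of all tested genes were lower and 27% were higher. DESeq2 called 7, adding Kdr. The median log2 fold change of the 10 was -1.32, and that of all tested genes was -0.11. Leaving out single libraries moved the count between 4 and 8, with the fewest calls without transgene-free wild-type replicate 2 or 3 or tumor replicate 1, 3 or 4, and the most, with Kdr and Flt1 added, without tumor replicate 2. Pecam1, Tek and Angpt2 passed the threshold in all 20 alternatives. The ribosomal RNA gene Rn45s took 8.57% to 12.8% of the counts in tumors, 2.34% to 5.64% in transgene-free wild-type ganglia, 8.80% in MYCN wild-type replicate 1 and 2.15% to 5.10% in the other ganglia, and its part in the result was not tested.

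**Figure D2:**
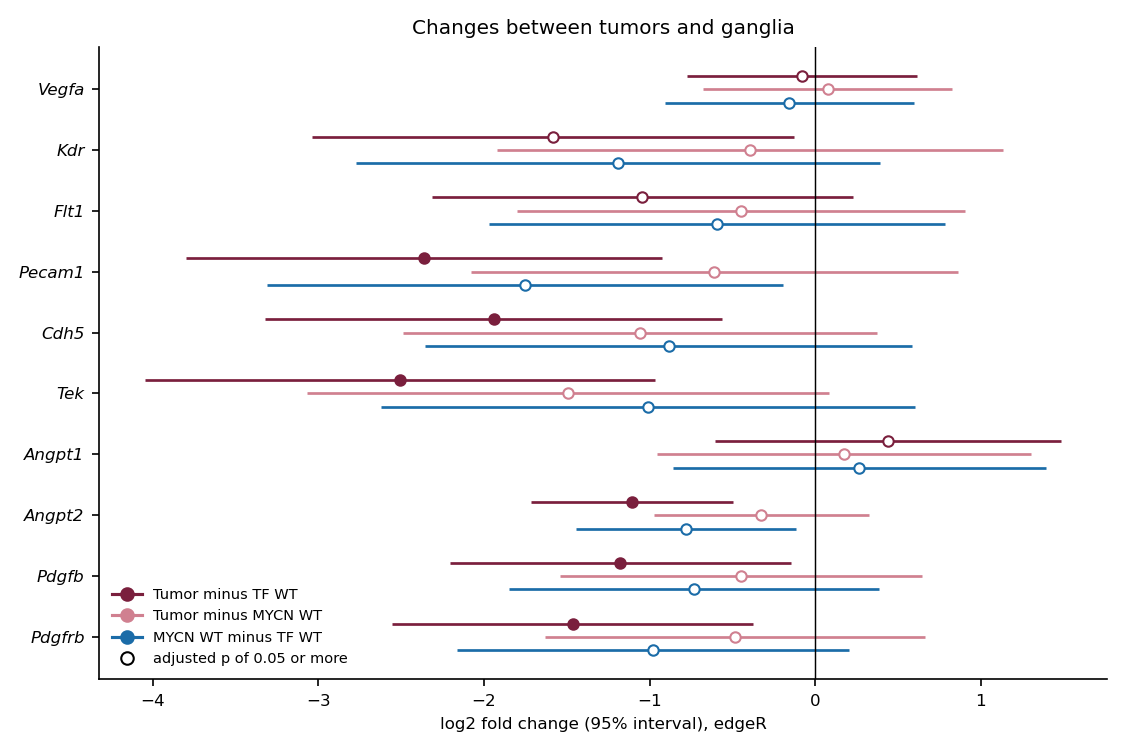
Log2 fold change of each vessel gene, with its 95% interval, in tumors against transgene-free wild-type ganglia, tumors against MYCN wild-type ganglia, and MYCN wild-type against transgene-free wild-type ganglia. Filled points passed an adjusted p of 0.05, which 6 genes did in the first comparison and 0 in the others.

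Against MYCN wild-type ganglia, which carry the same genotype as the tumors, 0 of the 10 genes passed the threshold in either direction, while 34.5% of all tested genes did (20.5% lower and 14% higher). The count was also 0 with DESeq2 and 0 at an unadjusted p under 0.05, where 45.1% of all tested genes passed. The lowest log2 fold changes were those of Tek, at -1.50 (95% interval -3.07 to 0.08, edgeR adjusted p = 0.130), and Cdh5, at -1.06 (95% interval -2.49 to 0.38, adjusted p = 0.236). Pecam1 was at -0.61, Pdgfrb at -0.48, Pdgfb and Flt1 both at -0.45, Kdr at -0.39, Angpt2 at -0.32 and Angpt1 at 0.17. The median of the 10 was -0.45 and that of all tested genes was -0.01. The result depended on single libraries of a wide group. On leaving out single libraries, Cdh5 ran from -1.51 to -0.074 and Pecam1 from -1.21 to -0.089. Kdr ran from -0.82 to 0.64 and Flt1 from -1.06 to 0.31, so both changed sign. Without tumor replicate 2, Tek was lower (-2.50, adjusted p = 0.0169), and without MYCN wild-type replicate 3, Vegfa was higher in tumors (0.81, adjusted p = 0.0453). With only the libraries over 20000000 counts, Cdh5 was lower (-1.54, adjusted p = 0.0163). The tumors' comparisons with the 2 ganglion groups share the tumor libraries.

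MYCN wild-type ganglia had 0 of 10 genes past the threshold against transgene-free wild-type ganglia, in a comparison where 0.936% of all tested genes passed, and DESeq2 also called 0 of the 10. The count over all genes was not stable: it was 156 with edgeR, 1274 with DESeq2 and 0 to 1811 on leaving out single libraries, the highest without MYCN wild-type replicate 3. Of the 10, 9 had log2 fold changes below 0, with a median of -0.83 beside -0.04 for all tested genes. At an unadjusted p under 0.05 there were 2 genes, against 19.8% of all tested genes. Pecam1 was at -1.75 (edgeR adjusted p = 0.208) and Angpt2 at -0.78 (edgeR adjusted p = 0.190). On leaving out single libraries Pecam1 ran from -2.27 to -0.86 and Angpt2 from -0.93 to -0.58. All 3 MYCN wild-type ganglia had less Angpt2 than all 4 transgene-free wild-type ganglia, as did 4.45% of all tested genes for their own values. MYCN wild-type replicate 1 was the lowest of its group for all 10 genes, and replicate 3 was the highest for all 10. Markers of other cells differed as well, and the summed TPM of replicates 1, 3 and 4 was 554, 2277 and 1447 for glia, 898, 3649 and 2982 for fibroblasts and 5534, 11220 and 8980 for sympathetic neurons, while it was 147.5, 66.5 and 113 for myeloid and 1675, 1319 and 1677 for chromaffin genes, and their part was not tested. Without replicate 3, Vegfa passed the threshold, lower in MYCN ganglia (-0.89, edgeR adjusted p = 0.0492).

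The Runx1t1 het label did not go with a called change in any vessel gene. In transgene-free ganglia 0 of 10 genes passed (0% of all tested genes, 0 of the 10 by DESeq2, which called 2 over all genes, and 0 at an unadjusted p under 0.05, which 4.12% of all genes passed). With all libraries, all 10 fold changes were below 0, from -1.39 for Pecam1 (95% interval -2.93 to 0.14) to -0.12 for Vegfa. Their median was -0.45, beside -0.03 for all tested genes. These signs depended on single libraries. On leaving out single libraries, Pecam1 ran from -1.74 to -0.50 and Kdr from -1.30 to -0.093. Angpt1 ran from -0.60 to 0.12 and Pdgfb from -0.56 to 0.056, so both changed sign. In MYCN ganglia 0 of 10 passed (0.012% of all tested genes, 0 by DESeq2 and 0 at an unadjusted p under 0.05, which 12.6% of all genes passed). Over all genes edgeR called 2 and DESeq2 251 in that comparison, and edgeR called 320 without MYCN wild-type replicate 3. Angpt2 had the highest value there, at 0.75 (95% interval -0.02 to 1.52, edgeR adjusted p = 0.404), and it rested on MYCN het replicate 1, without which it was -0.03. The intervals of the other genes in that comparison reached from -2.50 to 1.93, so changes of 2-fold in either direction lay within some of them.

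Of the remaining contrasts with the het groups, 1 had a called member. MYCN het against transgene-free het ganglia gave 0 of 10 (0% of all tested genes, 0 of the 10 by DESeq2, which called 14 over all genes, and 0 at an unadjusted p under 0.05, which 1.45% of all genes passed). The interaction of MYCN and Runx1t1 genotype also gave 0 of 10 (0% of all tested genes, 0 of the 10 by DESeq2, which called 30 over all genes, and 0 at an unadjusted p under 0.05, which 5.62% of all genes passed), with Angpt2 at 1.01 (95% interval -0.01 to 2.02, edgeR adjusted p = 0.845). Against the MYCN het ganglia, tumors had less Angpt2 (-1.08 ± 0.33, log2, SE, edgeR adjusted p = 0.0175) and it was the only member past the threshold, where 23.5% of all tested genes were lower. That call was lost without MYCN het replicate 1 (-0.32, adjusted p = 0.570), the library with the highest Angpt2 of all.

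To describe the genes relative to one another, each library's TPM was divided by the mean TPM of Pecam1 and Cdh5 in the same library. These ratios are a description without a test. Vegfa stood at 6.69, 1.70, 6.02 and 4.23 times the Pecam1 and Cdh5 mean in tumors and at 4.21, 0.35, 1.03 and 1.59 times in transgene-free wild-type ganglia. The groups overlapped, and the tumors differed from the ganglia more in the denominator than in Vegfa itself. Tumor replicate 2, with the most endothelial RNA of the tumors, had the lowest ratio of the 4.

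For Kdr this ratio was 0.622 ± 0.240 (SD) over the 4 tumors, and over the 4 transgene-free wild-type ganglia it was 0.394 ± 0.063, and Flt1 was 0.245 ± 0.069 and 0.145 ± 0.044. Tek went the other way, at 0.102 ± 0.047 in tumors and 0.172 ± 0.067 in transgene-free wild-type ganglia. The tumor ratios of Tek overlapped those of the transgene-free wild-type ganglia, but their highest, 0.164, was just under the lowest of the other 8 ganglia, which ran from 0.165 to 0.283. The Angpt1 ratio was 0.055 to 0.196 in tumors, 0.039 to 0.069 in MYCN wild-type ganglia and 0.006 to 0.045 in transgene-free wild-type ganglia, and the low denominator of the tumors enters it as it does for Vegfa. The Angpt2 ratio was 0.387 ± 0.160 in tumors and 0.307 ± 0.316 in transgene-free wild-type ganglia. The ratios of Angpt2, Pdgfb (0.185 ± 0.030 and 0.164 ± 0.130) and Pdgfrb (0.459 ± 0.173 and 0.511 ± 0.376) differed by less than their spread.

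**Figure D3:**
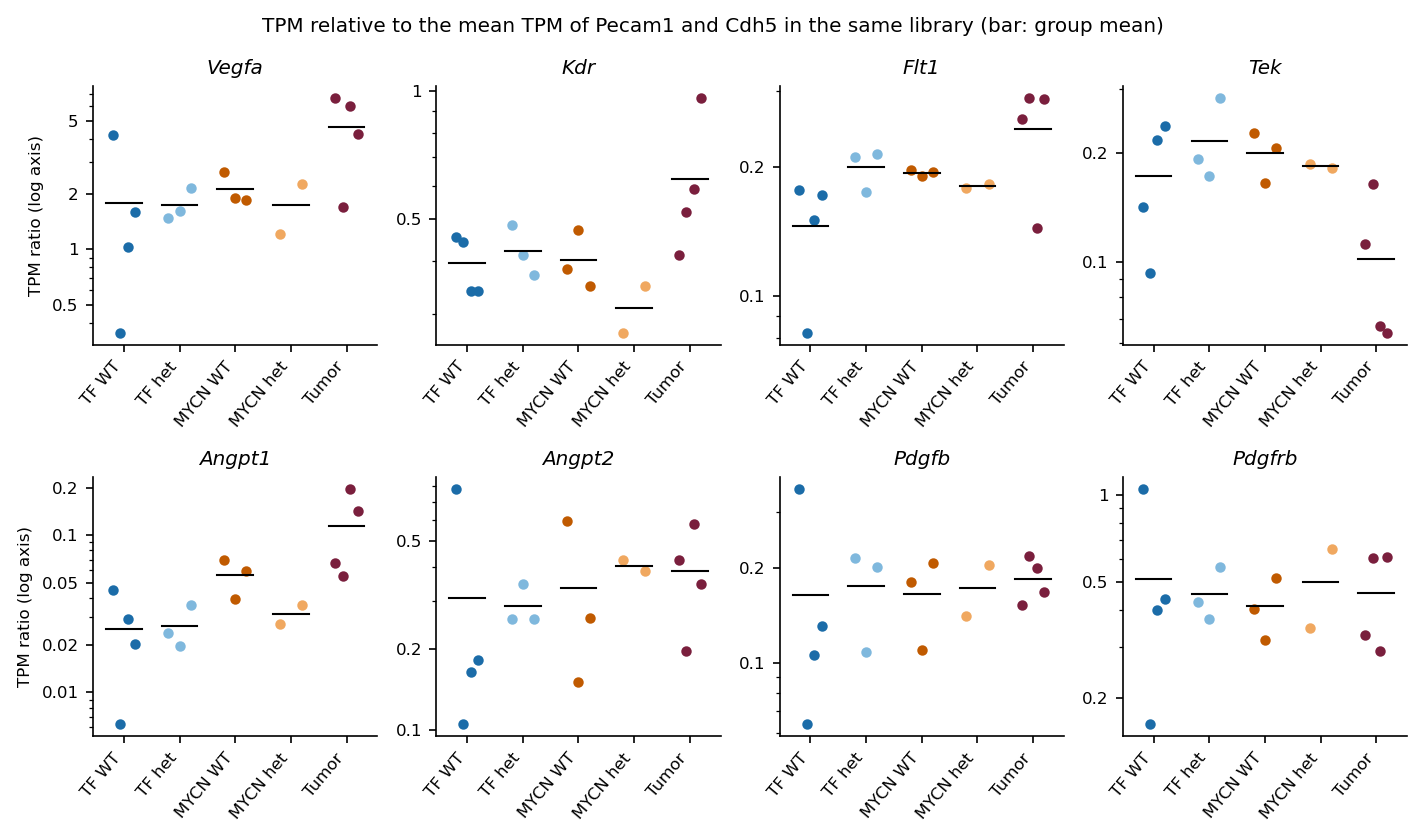
TPM of 8 vessel genes divided by the mean TPM of Pecam1 and Cdh5 in the same library, on log axes, with 1 point per library and a bar at the group mean. The 4 tumors lie between 0.064 and 0.164 for Tek and between 1.70 and 6.69 for Vegfa.

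The endothelial genes varied together from library to library. Over the 16 libraries, where genes of the same library share its depth and the make-up of the dissected piece, the Pearson r of log2(TPM + 1) between Cdh5 and Flt1 was 0.960, with Pecam1 0.950, with Tek 0.940 and with Kdr 0.934. Cdh5 was less alike with Angpt2 (0.755), Vegfa (0.621) and Angpt1 (0.401). Pdgfb and its receptor Pdgfrb had an r of 0.947. After subtracting the group means these values were 0.946, 0.930, 0.914 and 0.943 for the 4 endothelial partners of Cdh5, in the same order, 0.584 for Angpt2, 0.562 for Vegfa and 0.666 for Angpt1, and 0.884 for Pdgfb with Pdgfrb.

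Among the 14686 genes with a mean of at least 1 TPM, those most alike to Cdh5 were Tie1 (r = 0.979), Cd93 (0.973), Scarf1 (0.972), Adgrl4 (0.970) and Esam (0.969). Tie1 is the orphan partner of Tek and Esam an endothelial junction protein. Those most alike to Pdgfrb were Wls (0.952), Pdgfb (0.947), Figf (the VEGF-D gene, 0.943), Prss23 (0.937) and Pcolce (0.932). Those most alike to Vegfa were Ndufb10 (0.882), Thrsp (0.876), 1190005I06Rik (0.876), 1700040L02Rik (0.862) and Acsl1 (0.854). Thrsp and Acsl1 act in lipid synthesis and fatty acid activation, and no endothelial gene was among the 5.

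This led to a list of 9 fat cell genes, including Adipoq, Plin1 and Ucp1, which was chosen after the values were seen and is given without a test. Over the 12 ganglia, Vegfa and the summed TPM of these genes had a Pearson r of 0.933 and a Spearman rho of 0.895 on the log2 scale, and an r of 0.894 without the 2 farthest libraries, both MYCN wild-type ganglia. The list includes Thrsp, which had been named for its likeness to Vegfa. Other lists were also alike to Vegfa over these ganglia, with an r of 0.897 for angiogenesis inhibitors, 0.859 for the angiopoietin and Tie genes, 0.831 for tip cell and sprouting genes, 0.823 for erythroid, 0.805 for mural and 0.799 for glial genes, and the glial gene S100b alone had 0.945. The fat sums were 136, 4411 and 480 TPM in MYCN wild-type replicates 1, 3 and 4, where Vegfa was 26.6, 119 and 52.7 TPM. They were 367, 580, 2780 and 2155 TPM in transgene-free wild-type ganglia and 412, 376, 308 and 92.8 TPM in tumors. The part of fat, glial or other cells in the Vegfa values was not tested. For Cdh5 and the summed TPM of 20 endothelial markers, r over the 12 ganglia was 0.964.

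**Figure D4:**
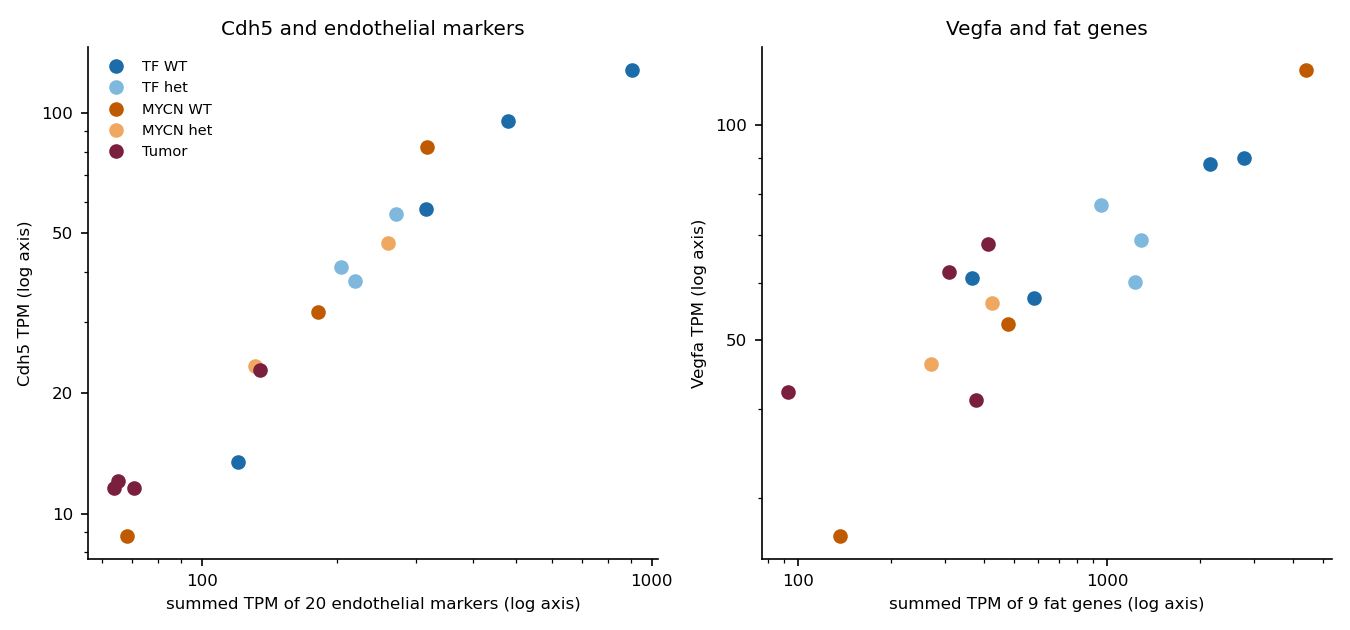
Left, TPM of Cdh5 against the summed TPM of 20 endothelial markers; right, TPM of Vegfa against the summed TPM of 9 fat cell genes chosen after the values were seen; log axes, 1 point per library. Tumors had at most 134.5 TPM of the endothelial markers, and the library with 4411 TPM of fat genes had the highest Vegfa.

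Lists of related genes are read here against the share of all tested genes called, which was 30.7% lower and 27% higher in tumors against transgene-free wild-type ganglia, and 20.5% lower and 14% higher against MYCN wild-type ganglia. Of 20 endothelial markers outside the member set, such as Erg and Vwf, 18 were lower in tumors than in transgene-free wild-type ganglia and 0 were higher, with a median log2 fold change of -2.01. Emcn (-1.28, edgeR adjusted p = 0.150) and Mmrn2 did not pass. Their summed TPM was 120, 905, 480 and 315 in transgene-free wild-type ganglia and 63.7, 134.5, 65.1 and 70.6 in tumors, where tumor replicate 2 reached the level of the lowest ganglion of that group. The count depended on transgene-free wild-type replicate 2, without which it was 7 of 20, near the share of all tested genes, and it was 11 of 20 against both transgene-free groups averaged. Against MYCN wild-type ganglia (68.3, 317 and 181 TPM) 3 of 20 were lower, a smaller share than the 20.5% of all tested genes, namely Sox17 (-2.70, edgeR adjusted p = 0.0034), Vwf (-2.15, adjusted p = 0.0277) and Cldn5 (-2.13, adjusted p = 0.0427). Over the alternatives that count ran from 1 to 8, with 8 when only libraries over 20000000 counts were used and 1 with the replicate block, without tumor replicate 3 or 4 and without MYCN wild-type replicate 3 or 4. In MYCN wild-type against transgene-free wild-type ganglia 0 of 20 passed.

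Other VEGF genes were mixed. In tumors against transgene-free wild-type ganglia 3 of 7 were lower, beside 30.7% of all tested genes, the lymphatic ligands Vegfc (-1.60, edgeR adjusted p = 0.0239) and Figf (-1.66, adjusted p = 0.0384) and the co-receptor Nrp1 (-2.11, adjusted p = 4.4e-05). The co-receptor Nrp2 was higher (1.29, edgeR adjusted p = 0.00107), beside 27% of all tested genes. Nrp1 was the one also lower against MYCN wild-type ganglia (-1.79, adjusted p = 0.000573), with 13.9 to 27.4 TPM in tumors and 49.1 to 125 TPM in those ganglia. Nrp1 and Nrp2 are made by neurons as well as endothelium.

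Of the other angiopoietin and Tie genes, 5 of 5 tested were lower in tumors than in transgene-free wild-type ganglia, beside 30.7% of all tested genes. Tie1 was at -2.41 (edgeR adjusted p = 0.00551), with 2.47 to 4.36 TPM in tumors and 3.67 to 42.3 TPM in those ganglia. The phosphatase Ptprb, which restrains Tek, was at -1.67, Angptl4 at -1.09, Angptl2 at -2.20 and Svep1 at -3.51. Against MYCN wild-type ganglia, Angptl2 (-1.64, adjusted p = 0.00388) and Svep1 (-2.82, adjusted p = 0.00303) were lower. Among the other PDGF genes, Pdgfa and Pdgfra were lower in both comparisons, Pdgfra by -4.21 against transgene-free wild-type and -3.09 against MYCN wild-type ganglia. Pdgfra is a fibroblast gene, and 8 of 8 fibroblast genes, Pdgfra among them, were lower in tumors than in transgene-free wild-type ganglia, with summed levels of 176 to 516 TPM against 1910 to 7996 TPM.

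Among 12 genes that mark arteries, veins, capillaries or lymphatics, 5 were lower in tumors than in transgene-free wild-type ganglia and 1 was higher, beside 30.7% and 27% of all tested genes. The arterial genes Gja4 and Hey1, the venous genes Ephb4 and Ackr1 and the lymphatic gene Lyve1 were lower, and Hey1, Ephb4 and Ackr1 were lower against MYCN wild-type ganglia too, where 20.5% of all tested genes were. Ackr1, a venule gene, was at -4.26 (edgeR adjusted p = 2.51e-06) and at -3.91 (adjusted p = 1.27e-05) against MYCN wild-type ganglia, with 0.96 to 2.29 TPM in tumors and 15.8 to 75.9 TPM across all ganglia. Prox1 was higher (3.90, adjusted p = 0.000225), at 131 to 194 TPM in tumors, 8.55 to 21.7 TPM in transgene-free wild-type ganglia and 173, 9.95 and 93.4 TPM in MYCN wild-type replicates 1, 3 and 4. Prox1 is known from lymphatic endothelium and also from neural progenitors, and the source of its RNA was not tested. Over the 12 ganglia, the Pearson r with Cdh5 was 0.237 for Ackr1 and 0.173 for Hey1. It was 0.940 for Ephb4, 0.883 for Gja4 and 0.685 for Lyve1. Which cells made the RNA of these genes was not tested.

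Of 9 tip cell and sprouting genes, 4 were lower in tumors and 1 was higher, in both comparisons, with Aplnr, Cxcr4, Unc5b and Nid2 lower each time, beside 30.7% lower and 27% higher, and 20.5% lower and 14% higher, of all tested genes. Esm1, a VEGF-responsive proteoglycan of tip cells, was higher in tumors, with 91, 336, 149 and 330 counts against 2, 4 and 10 in MYCN wild-type ganglia and 5, 22, 5 and 15 in transgene-free wild-type ganglia. In TPM these were 3.27, 8.59, 5.12 and 8.52 in tumors and at most 2.22 in any ganglion. The log2 fold change was 3.28 against transgene-free wild-type ganglia (edgeR adjusted p = 0.000910) and 5.07 against MYCN wild-type ganglia (adjusted p = 0.000533). Dll4, the Notch ligand of tip cells, was at 0.08 against transgene-free wild-type ganglia (adjusted p = 0.916). Over the 12 ganglia, the Pearson r with Cdh5 was 0.277 for Esm1, 0.343 for Cxcr4 and 0.395 for Unc5b. It was 0.840 for Aplnr and 0.673 for Nid2, and which cells made these RNAs was not tested.

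Mural cell markers other than Pdgfrb gave 4 of 12 lower in tumors than in transgene-free wild-type ganglia, Cspg4, Kcnj8, Abcc9 and Mcam, a share near the 30.7% of all tested genes that were lower. Of these, Cspg4 and Mcam were lower against MYCN wild-type ganglia as well. Their summed level was 89.7 to 334.9 TPM in tumors and 575 to 955 TPM in transgene-free wild-type ganglia. Mcam, which is also made by neural crest cells, took much of the sum in the ganglia, with 144.7 to 668 TPM there. Against MYCN wild-type ganglia the list's median was 0.33, and 5 of 12 genes were below 0. In tumors against transgene-free wild-type ganglia, the smooth muscle gene Acta2 was at -0.24 (edgeR adjusted p = 0.801) and Rgs5, a pericyte gene, at -0.81 (adjusted p = 0.0924).

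The hypoxia response is the usual inducer of Vegfa. Against transgene-free wild-type ganglia 4 of 14 genes were lower (Epas1, Slc2a1, Bnip3 and Ndrg1) and 2 were higher (Hif1a at 0.85 and Egln1 at 0.38), with a list median of 0.06. The share lower is near the 30.7% of all tested genes, and the share higher is below their 27%. Epas1, which is strongly made by endothelium, was at -1.74 (edgeR adjusted p = 0.00969). Against MYCN wild-type ganglia Ndrg1 (-2.05), Bnip3 (-1.24) and Egln3 (-3.66) were lower and Ankrd37 (1.28, adjusted p = 0.00926) was higher. Of 11 angiogenesis inhibitors, 4 were lower and 0 higher in tumors than in transgene-free wild-type ganglia, Thbs2, Serpinf1, Timp3 and Sparc, also a share near that of all tested genes, of which Thbs2, Sparc and Timp3 were also lower against MYCN wild-type ganglia. In MYCN wild-type against transgene-free wild-type ganglia 0 genes of any of these lists passed.

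Markers of other cells moved with the same comparison, in which 30.7% of all tested genes were lower and 27% higher. In tumors against transgene-free wild-type ganglia, 8 of 10 sympathetic neuron genes were lower and 1 was higher (1508 to 2340 TPM summed in tumors, 5693 to 15797 in those ganglia), 0 of 9 myeloid genes passed (118 to 319 and 45.8 to 747 TPM) and 4 of 8 lymphocyte genes were lower and 1 higher (5.22 to 14.4 and 2.75 to 720 TPM). Erythroid genes gave 0 of 5 (2717 to 14413 and 930 to 8263 TPM), platelet genes 3 of 5 lower (3.30 to 13.2 and 52.5 to 86.2 TPM), adrenal cortex genes 5 of 6 lower (3.05 to 5.66 and 6.48 to 101 TPM), chromaffin genes 3 of 6 higher and 2 lower (1227 to 1942 and 528 to 1814 TPM), and liver genes 3 of 6 higher (2.67 to 7678 and 10.4 to 283 TPM). Tumor replicate 2, which had the most endothelial RNA of the tumors, also had their highest myeloid sum, 319 TPM. The part of these cell types in the vessel results was not tested.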

How the data were processed

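RNA was sequenced from 12 celiac ganglia and 4 tumors. Per the labels, libraries were made with the SMARTer Stranded Total RNA-seq v2 kit, although the same labels call the RNA polyA. The submitters' processing notes name STAR, SAMtools and RSEM with mm10. The authors deposited RSEM expected counts (estimated, not whole) and TPM values (transcript shares scaled by gene length to a fixed total) for each library. Column headers give the Runx1t1 genotype as Het or Hom, and Hom was read as wild type from the sample labels. No column of per-library values was left unassigned.

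The expected counts, once rounded to integers, were filtered with filterByExpr by group and scaled by TMM, and edgeR 4.0.16 (R 4.3.3) quasi-likelihood tests were run for 8 contrasts in one fit of the 5 groups. P-values were adjusted by the Benjamini-Hochberg method over 16665 genes, with a threshold of 0.05, and intervals are 95%. Levels and ratios use TPM, likeness uses log2(TPM + 1), and figures were drawn with matplotlib 3.10.9. The tests were tested on simulated data for tumors against transgene-free wild-type ganglia only, and the other contrasts were not simulated. Total counts of 10692299 to 38618757 per library set the precision of scarce genes such as Angpt1.

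The members and lists were chosen with earlier results of these data known. All 10 members are named. From the other lists, the rule named up to 2 higher and 2 lower genes with the largest change in tumors against MYCN wild-type ganglia (mean of at least 1 TPM). Other list genes were named after their values were seen. The gene tables call Vegfd Figf. In the erythroid list Ahsp was not matched, and Angpt4, Higd1b, Hbb-bs, Cyp11b2, Mc2r and Cd3e fell below the filter.

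Alternatives were upper-quartile scaling, no filter or at least 10 counts in every library, DESeq2 1.42.0, a replicate block, terms for depth and sex, a fit of only the groups compared and leaving out each library. Averaging both transgene-free groups, keeping only libraries over 20000000 counts, leaving out tumor and transgene-free wild-type replicate 2 together, limma on log2(TPM + 1) and the fat gene list were added after seeing the data. Tumors and transgene-free wild-type ganglia share replicate numbers 1 to 4, and same-numbered libraries deviated together in 4 of 4 pairs (r of 0.148 to 0.319). From the data alone, the numbers were therefore treated as possible pairs in that comparison. The values printed for that comparison come from the fit without a replicate block, except where the block is named. The block was fitted over all 16 libraries, so it also joined same-numbered libraries of the other groups. With the block the same 6 members passed, and 16 of 20 endothelial markers were lower in place of 18.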

Additional observations from a re-analysis of the deposited data

Results flagged for a closer look

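Tumor replicate 2 was set apart from the other 3 tumors by the gap test for groups of 4 in 4 genes, each time as the highest library. Its TPM was 25.6 for Pecam1, 22.8 for Cdh5, 3.97 for Tek and 5.27 for Pdgfb. Of 20 pairs of a gene and a group of 4 tested in this way, 4 were flagged. The gap test was run on TPM and not on a log scale. Its chance rate of about 1 in 20 holds for normally distributed values, and whether TPM met this was not tested. The count of 4 is therefore not weighed against that rate. These 4 genes vary together, so they do not count as 4 separate flags. The same library had the highest myeloid sum of the tumors, 319 TPM. The cause was not tested.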

How the results depend on the processing

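Tumors against transgene-free wild-type ganglia gave 4 to 8 of the 10 genes lower on leaving out single libraries and 5 to 7 under the other settings, with Kdr gained without transgene-free wild-type replicate 1 and Kdr and Flt1 gained without tumor replicate 2. Against MYCN wild-type ganglia the count of 0 became 1 with only libraries over 20000000 counts, and it ran from 0 to 1 on leaving out single libraries. MYCN wild-type against transgene-free wild-type ganglia likewise ran from 0 to 1. Tumors against MYCN het ganglia went from 1 to 0 with the depth term and to 0 with only the groups compared, and from 0 to 3 on leaving out single libraries, the 3 being Tek, Angpt2 and Pdgfrb without tumor replicate 2.

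Some log2 fold changes changed sign, including some that were not near 0. For tumors against MYCN wild-type ganglia, Vegfa was -0.030 with the depth term, -0.29 with only libraries over 20000000 counts, -0.082 with limma and -0.27 to 0.81 on leaving out single libraries, and Angpt1 was -0.16, -0.11 and -0.14 to 0.59 with the last 3 of these. On leaving out single libraries Kdr ran from -0.82 to 0.64 and Flt1 from -1.06 to 0.31, and against transgene-free wild-type ganglia Vegfa ran from -0.22 to 0.016. Angpt2 in MYCN het against wild-type ganglia ran from -0.028 to 1.25. The cause was not tested.

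Beyond the vessel genes, leaving out single libraries turned the sign, in tumors against MYCN wild-type ganglia, of Cd79a (-0.88 to 1.33), Hbb-bt (-0.21 to 1.19), Alb (-2.12 to 6.56) and Apoa1 (-1.56 to 6.55). Lck was -0.24 with the replicate block and -0.56 with the sex term.

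The replicate block changed no member's call. For tumors against MYCN wild-type ganglia 0 members passed with it, and the calls over all genes went from 5755 to 5038. Same-numbered libraries there had correlations of -0.167 to 0.109, and only 1 of 3 was best with its own number. For MYCN wild-type against transgene-free wild-type ganglia (-0.136 to 0.210, 2 of 3) the calls went from 156 to 0, and for the het against the wild-type transgene-free ganglia correlations were -0.169 to -0.036 (0 of 3). In those comparisons the numbers were not taken as pairs. With log2(TPM + 0.1) in place of log2(TPM + 1), 4 of the 5 genes most alike to Cdh5 were shared, 3 of 5 for Vegfa and 3 of 5 for Pdgfrb. Angpt1 had the fewest counts, 14 to 128.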
